A study of Mus musculus with 12 samples.

Results

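The 50 genes described here encode subunits of the mouse proteasome, or carry a proteasome gene name. They are the protein-coding autosomal genes, of 20665 in the annotation used, whose symbols begin with Psma, Psmb, Psmc, Psmd, Psme, Psmf or Psmg followed by a digit. Grouped by role they comprised 8 genes of the alpha ring and 8 of the beta ring of the core particle, the 3 immunoproteasome genes, 9 genes of the base, 8 of the lid, 6 regulators and 6 assembly chaperones. The pattern also took 2 genes, Psmc3ip and Psme3ip1, whose products are named as interacting proteins and are not subunits. The X-linked gene Psmd10 lay outside the rule.

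The material was mouse embryonic fibroblasts, cells cultured from the connective tissue of embryos, of WT (wild type) or fbxw7 KO (knockout) genotype. The Fbxw7 protein picks the substrates that an SCF ubiquitin ligase tags with ubiquitin. All groups were grown in the same DMEM-based medium with serum, and how the knockout was made, the number of clones and the age of the embryos are not given in the sources used here. Cut & Run, in which an antibody brings a nuclease to chromatin and the released fragments are sequenced, was run with antibodies to MLL4 (the H3K4 methyltransferase encoded by Kmt2d), H3K4me1 and H3K4me3, with 2 libraries per antibody and genotype and 12 in all.

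The proteasome degrades proteins tagged with ubiquitin. Its core particle stacks rings of alpha and beta subunits, and the beta rings carry the proteolytic sites. The regulatory particle caps the core: its base holds the ATPases that unfold substrates, and its lid removes ubiquitin. In the immunoproteasome, which interferon induces, Psmb8, Psmb9 and Psmb10 replace the constitutive catalytic subunits and shift the peptides that are cut towards those that MHC class I molecules present. H3K4me3 marks the promoters of active genes, and H3K4me1 marks enhancers and the flanks of promoters.

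For 42 of the 50 genes RefSeq (GRCm38.p6) gave a start site with its strand and promoter. The promoters of 8 genes are shown because the results below turn on them: the 3 immunoproteasome genes, the gene with H3K4me3 at its ends in WT libraries alone (Psmc2), the one with H3K4me1 there in WT libraries alone (Psmd11), the core gene with the longest H3K4me3 cover (Psma2), and core genes with none at their ends (Psma6 and Psmb11). Each sequence runs 5′ to 3′ on the strand of the gene and ends at the base before a listed start. Bases that lie in a neighbouring gene were left off, so the stretches for Psmb9 and Psma2 are shorter than 250 bases. The promoter at the outer start of Psmc2 lies almost wholly within Dnajc2 and is not shown. Capitals mark matches, on either strand, to one of 6 motifs. These are TGACNNNGC (the core of the antioxidant response element, bound by the products of Nfe2l1 and Nfe2l2), the CCAAT box, the core of the interferon-stimulated response element, the palindromic core of the nuclear respiratory factor site, CCGGAAG (the core of an ETS site) and the TATA box TATAAA. No motif overlapped another in the stretches shown. A match is a description of letters in the window.
Psmb8, chr17:34197945-34198194, plus strand: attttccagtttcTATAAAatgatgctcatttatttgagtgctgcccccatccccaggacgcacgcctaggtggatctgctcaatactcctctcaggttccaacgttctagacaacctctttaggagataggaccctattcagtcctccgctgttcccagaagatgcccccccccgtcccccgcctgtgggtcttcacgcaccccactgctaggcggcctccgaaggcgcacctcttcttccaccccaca
Psmb9, chr17:34187331-34187555, minus strand: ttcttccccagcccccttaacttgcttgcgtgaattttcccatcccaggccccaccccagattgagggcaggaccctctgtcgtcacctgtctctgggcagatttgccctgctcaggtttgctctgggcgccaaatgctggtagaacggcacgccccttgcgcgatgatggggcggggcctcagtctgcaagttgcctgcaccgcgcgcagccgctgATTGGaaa
Psmb10, chr8:105938393-105938642, minus strand: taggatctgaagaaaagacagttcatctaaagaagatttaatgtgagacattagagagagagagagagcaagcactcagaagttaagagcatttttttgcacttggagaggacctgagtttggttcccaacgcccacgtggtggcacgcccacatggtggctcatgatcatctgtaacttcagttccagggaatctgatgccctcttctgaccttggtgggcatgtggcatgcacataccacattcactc
Psmc2, inner start, chr5:21786497-21786746, plus strand: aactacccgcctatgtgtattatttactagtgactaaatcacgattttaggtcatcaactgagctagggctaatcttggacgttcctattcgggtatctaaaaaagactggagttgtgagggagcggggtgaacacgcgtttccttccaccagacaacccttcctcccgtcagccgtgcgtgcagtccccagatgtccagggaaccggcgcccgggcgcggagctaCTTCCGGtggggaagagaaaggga
Psmd11, chr11:80428365-80428614, plus strand: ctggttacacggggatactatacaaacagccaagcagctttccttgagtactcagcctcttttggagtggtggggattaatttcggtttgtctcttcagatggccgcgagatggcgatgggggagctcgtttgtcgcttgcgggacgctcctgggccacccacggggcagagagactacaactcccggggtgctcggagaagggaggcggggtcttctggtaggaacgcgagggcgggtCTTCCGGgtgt
Psma2, chr13:14613038-14613241, plus strand: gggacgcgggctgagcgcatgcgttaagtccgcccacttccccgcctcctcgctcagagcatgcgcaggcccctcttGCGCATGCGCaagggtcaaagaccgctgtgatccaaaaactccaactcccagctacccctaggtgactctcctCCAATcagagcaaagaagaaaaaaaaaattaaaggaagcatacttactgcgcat
Psma6, outer start, chr12:55383972-55384221, plus strand: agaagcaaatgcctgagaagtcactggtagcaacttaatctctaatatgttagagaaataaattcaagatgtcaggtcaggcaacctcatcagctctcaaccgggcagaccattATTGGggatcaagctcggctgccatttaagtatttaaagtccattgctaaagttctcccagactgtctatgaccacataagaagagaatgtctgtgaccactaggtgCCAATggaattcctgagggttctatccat
Psma6, inner start, chr12:55398575-55398824, plus strand: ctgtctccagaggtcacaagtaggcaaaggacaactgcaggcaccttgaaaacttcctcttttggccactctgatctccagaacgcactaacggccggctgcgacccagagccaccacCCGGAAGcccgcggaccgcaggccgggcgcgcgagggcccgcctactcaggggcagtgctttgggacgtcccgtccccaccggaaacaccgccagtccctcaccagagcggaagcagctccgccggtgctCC
Psmb11, chr14:54625060-54625309, plus strand: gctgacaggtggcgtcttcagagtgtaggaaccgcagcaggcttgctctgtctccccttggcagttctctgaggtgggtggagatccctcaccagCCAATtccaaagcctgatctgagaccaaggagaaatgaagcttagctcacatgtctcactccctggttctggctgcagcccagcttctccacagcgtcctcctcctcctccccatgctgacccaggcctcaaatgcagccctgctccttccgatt

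The Psmd11 stretch and that of the inner Psmc2 start each hold 1 match to CCGGAAG, in both cases as its reverse complement within 30 bases of the start. The inner Psma6 stretch holds 1 whole match and the first letters of another that crosses the start. The outer Psma6 stretch has no CCGGAAG, and its matches are CCAAT on both strands. In the 300-base windows, which run 250 bases before to 50 bases after the start, Psmb10 had 3 CG dinucleotides, outer Psma6 3 and Psmb11 4, against 22 at the inner Psma6 start, 26 at Psmd11 and a median of 19 over the 42 genes. The immunoproteasome genes Psmb8 and Psmb9 had 11 and 17. The median over all 16457 promoters was 14. Among genes with H3K4me3 at their ends in all 4 libraries the order was reversed, with medians of 19 over 34 proteasome genes and 22 over 6062 promoters.

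CCGGAAG occurred in the windows of 15 of the 42 genes (35.7%), against 12.3% of all promoters. Where H3K4me3 lay at the gene ends in all 4 libraries, CCGGAAG was in 14 of 34 windows (41.2%), against 22.6% of 6062. One window per gene, that at the outermost listed start, was counted. The 15 included 5 genes of the base (Psmc1, Psmc2, Psmc6, Psmd2 and Psmd4) and 4 of the lid (Psmd6, Psmd11, Psmd12 and Psmd13), and none of the 15 was a core or immunoproteasome gene. The core genes Psma8, Psmb1, Psmb2 and Psmb7 had no window to count. The inner start of Psma6, which holds CCGGAAG, was not counted. The core of the interferon-stimulated response element was in 5 windows (11.9%, against 3.42% of all): those of Psmb3, Psmd4, Psmd9, Psme1 and Psmg4. TGACNNNGC was in 6 (14.3% against 13.2%), and CCAAT in 15 (35.7% against 39.1%). The nuclear respiratory factor core was in 7 (16.7%) against 9.19% of all promoters, and in 20.6% against 16.3% of those of genes with H3K4me3 in all 4 libraries. TATAAA was in 4 (9.52% against 13.5%), but among genes marked in all 4 libraries in 8.82% of windows, against 5.91% of all such promoters. Among those marked genes the direction was kept for the interferon element core (14.7% against 3.22%), TGACNNNGC (17.6% against 15.2%) and CCAAT (32.4% against 40.0%). No test was made of these shares.

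Sequenced depth differed between the H3K4me3 libraries. They held 11319701 and 6185767 fragments after filtering in WT replicates 1 and 2, and 5519477 and 5938102 in KO replicates 1 and 2. Their lists held 10397 to 17460 peaks on chromosomes 1 to 19 and X, with more in either WT library than in either KO library. The list of WT replicate 1 alone was made with up to 2 duplicate fragments per position kept, and the other 3 with 1. The H3K4me1 libraries held 11604131 to 13627038 fragments and the MLL4 libraries 4435103 to 5838305. Of 15 fibroblast marker genes 13 had H3K4me3 at an end in 1 library or more (56.2% of all genes), and the exceptions were Prrx1 and Pdgfra. In all 4 libraries 5 were marked (64.1% of all genes with a peak). In both WT libraries and neither KO library 3 were marked (14.7%), and 5 had another pattern (21.2%). The summed covered length of the 15 was 14392 and 10178 bp in the WT libraries and 4027 and 4122 bp in the KO libraries. An H3K4me3 peak was seen at 1 of 6 haematopoietic markers (Spi1, in WT libraries), 1 of 4 endothelial markers (Kdr), 1 of 4 epithelial markers (Epcam, in WT replicate 1) and none of 3 pluripotency markers. Ptprc, Pecam1 and Cdh1 were at 0 in all 4 libraries.

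H3K4me3 lay at nearly all proteasome genes. A gene was scored by the deposited peaks within 1 kb of either end of its annotated span, and its covered length is the number of bases of those windows under a peak. Bases of a peak outside the windows were not counted, so the cover around 1 end cannot exceed 2001 bp. In at least 1 library 45 of the 50 genes (90.0%) had a peak, against 56.2% of all autosomal protein-coding genes. In all 4 libraries 41 (82.0%) had one, against 36.0% of all genes. Of the 45 genes with a peak, these 41 made up 91.1%, against 64.1% of the 11608 genes with a peak. WT replicates 1 and 2 each marked 45 of the proteasome genes (backgrounds 55.9% and 53.4% of all genes), KO replicate 1 marked 41 (39.3%) and KO replicate 2 marked 44 (41.9%). Psmc2 alone had peaks at its ends in both WT libraries and neither KO library, 1 of 45 against 14.7% of all genes with a peak. None had peaks there in the KO libraries alone (background 0%). Psma5, Psma7 and Psmb4 had a peak in every library but KO replicate 1, which 10.2% of all genes with a peak also did, and they were the only genes with a mixed pattern (3 of 45, background 21.2%). With the stricter limit of a −log10 q of at least 10, only 8 genes kept a peak in all 4 libraries and 23 had one in the WT libraries alone. The background shares were then 7.38% and 62.5% of all genes with a peak.

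**Figure D1:**
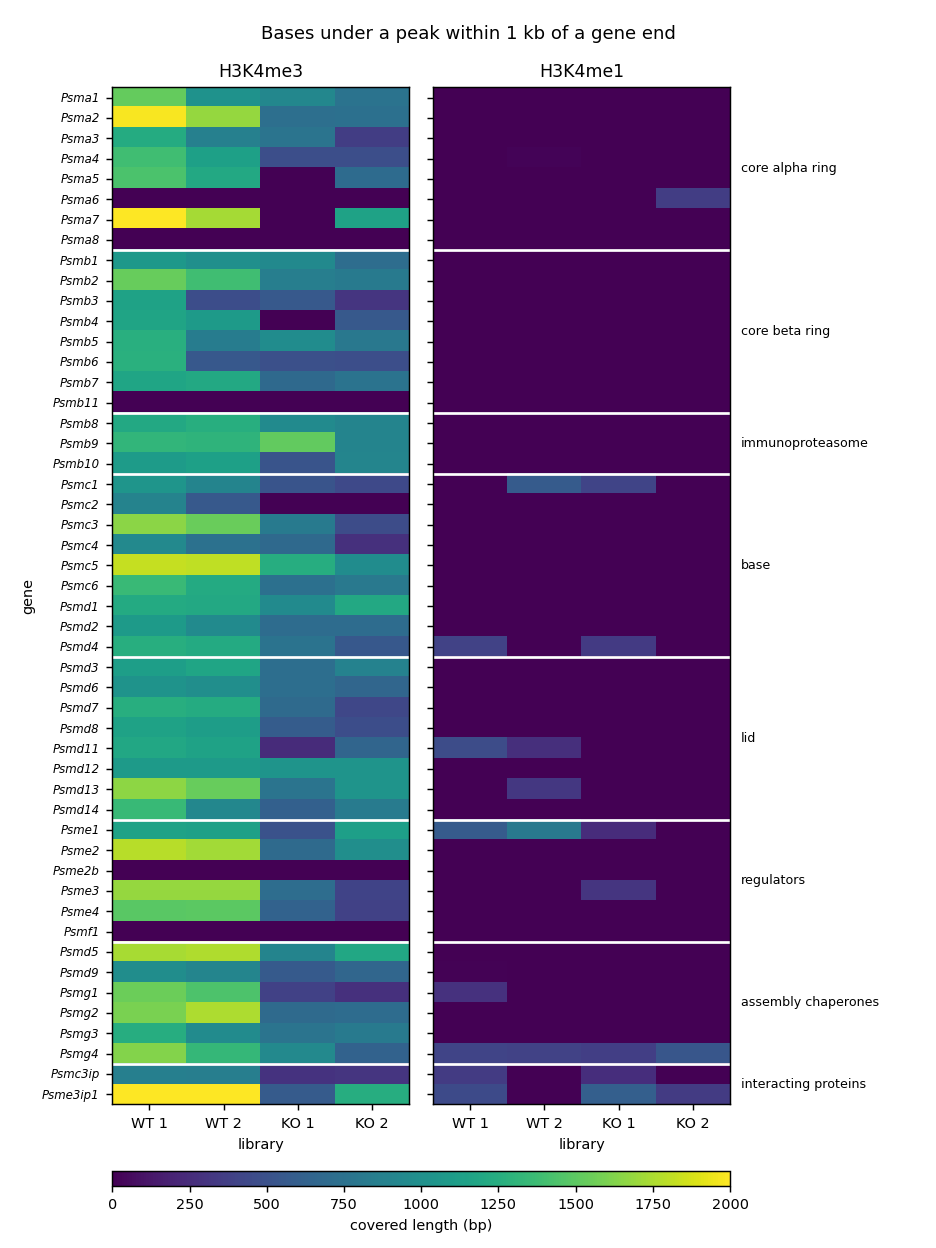
Bases under a peak within 1 kb of either gene end (colour, bp) for each of the 50 genes (rows, grouped by role) in the 4 H3K4me3 libraries (left) and the 4 H3K4me1 libraries (right). H3K4me3 covered 41 genes in all 4 libraries, and H3K4me1 covered 1, Psmg4.

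In most of these genes the H3K4me3 peaks were shorter in the KO libraries, as they were across the genome. The 41 genes marked in all 4 libraries had a median covered length of 1253 and 1179 bp in WT replicates 1 and 2, and 715 and 717 bp in KO replicates 1 and 2. The medians over all 7442 genes marked in all 4 libraries were 1344, 1186, 595 and 681 bp. The median ratio of KO to WT mean length was 0.569 for the proteasome genes (−0.81 on the log2 scale) and 0.515 for all such genes (−0.96). A ratio under 0.5 was found for 14 of the 41 (34.1%), against 46.6%. Both KO libraries were lower than both WT libraries at 41 of the 45 genes with a peak, against 91.6% of all genes with a peak, and no proteasome gene was higher in both (background 0.00861%). The share is that of the background. Of the 41 marked in all 4 libraries 37 were lower in both KO libraries, against 96.1%. In covered length within the windows, WT and KO overlapped at 4 genes: Psmb3, Psmb5, Psmb9 and Psmd1. With 2 libraries against 2, an exact two-sided permutation test cannot give a p-value below 0.333, so no gene could pass 0.05. WT replicate 2 and the KO libraries were of similar depth (6185767 against 5519477 and 5938102 fragments). Their lists held 16078 against 10397 and 11281 peaks. This is 1 WT library, and the parts of depth and of enrichment in the shorter cover were not tested.

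**Figure D2:**
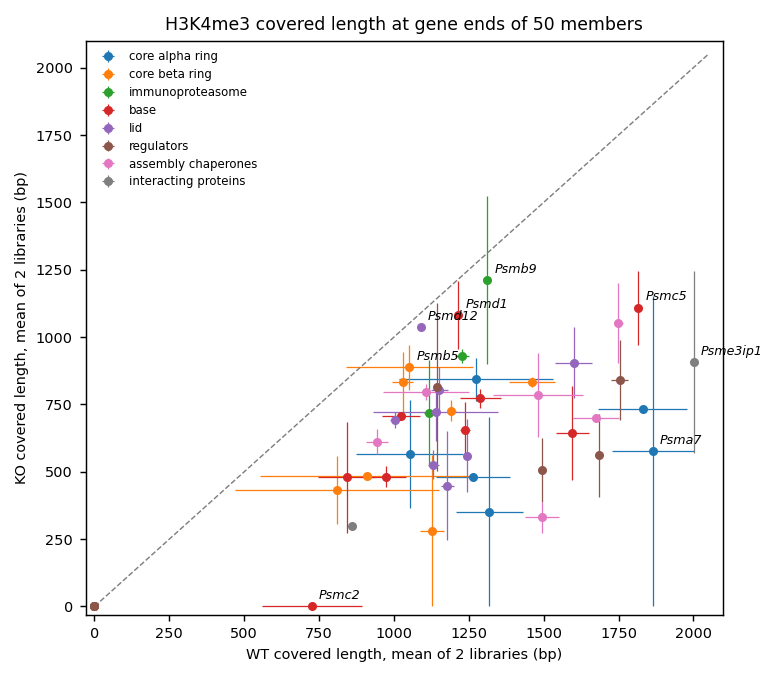
Covered length of H3K4me3 at the gene ends, in bp, as the mean of the 2 WT libraries (horizontal) against the mean of the 2 KO libraries (vertical), with bars to the lower and higher library. All genes with a peak lie below the dashed line of equal length, and Psmc2 lies at 0 bp in KO.

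Peaks at the alpha ring genes, which form the gated outer rings of the core, ranged from some of the longest of these genes to none. Psma7 (chr2:180036367-180042464) had a covered length of 2001 and 1727 bp in WT replicates 1 and 2, and 0 and 1153 bp in KO replicates 1 and 2. The 2001 bp is the whole window around its start. Both WT libraries were above both KO libraries, and the start of Ss18l1 lies 19 bp from the Psma7 start, so the 2 genes share the window. Psma2 (chr13:14613242-14625673), which faces the start of Mrpl32 at 205 bp, had 1978, 1682, 732 and 736 bp in the same order. The KO libraries differed by 4 bp there. Psma5 had 1431 and 1207 bp in WT, and 0 and 702 bp in KO. Psma1, Psma3 and Psma4 had 872 to 1531 bp in WT libraries and 364 to 922 bp in KO libraries, which for Psma3 is the cover at its outer ends and not at its listed start. Psma8, the testis form of Psma7, had no H3K4me3 peak at its ends in any library.

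Psma6 (chr12:55384222-55418459) also had no peak within 1 kb of its ends, but the promoter table lists a second start 14603 bp inside the gene, and H3K4me3 lay there in all 4 libraries. In distance from the outer start, the peak ran from 13874 to 16168 bp in WT replicate 1 and from 14129 to 16168 bp in WT replicate 2. In KO replicate 1 one peak ran from 14124 to 14460 bp and another from 15475 to 15939 bp. The peak of KO replicate 2 ran from 14672 to 15311 bp. Thus both WT peaks covered the inner start, and no KO peak did. Of the promoters printed above, the outer one, without H3K4me3, is the one with 3 CG dinucleotides, and the inner one has 22.

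The beta ring holds the constitutive catalytic subunits Psmb5, Psmb6 and Psmb7, and 6 of its 8 genes were marked in all 4 libraries. Psmb2 (chr4:126677637-126709715) had the longest, with 1537 and 1384 bp in WT and 852 and 816 bp in KO. Psmb5 (chr14:54614120-54617995), the chymotrypsin-like subunit, had 1263 and 840 bp in WT, and 971 and 804 bp in KO. Its KO replicate 1 exceeded WT replicate 2, so the genotypes overlapped. Psmb3 (chr11:97703434-97713500) had the shortest cover of the marked beta genes, with 1152 and 470 bp in WT, and 560 and 306 bp in KO, again with overlap. Psmb4 had 1166 and 1086 bp in WT, and 0 and 561 bp in KO. Psmb6 had 1271 and 552 bp in WT, and 491 and 478 bp in KO, so that WT replicate 2 stood closer to the KO libraries than to WT replicate 1. Psmb1 and Psmb7 had 994 to 1206 bp in WT and 687 to 946 bp in KO. Psmb11 (chr14:54625310-54629556), the catalytic subunit of the thymoproteasome of thymic cortical epithelium, had none in any library.

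All 3 immunoproteasome genes carried H3K4me3 in all 4 libraries, in fibroblasts for which the labels name no interferon treatment. Psmb8 (chr17:34198195-34201454), which replaces Psmb5, had a covered length of 1205 and 1250 bp in WT and 956 and 903 bp in KO. Both KO values lay below both WT values. Psmb9 (chr17:34182030-34187330), which replaces Psmb6, had 1320 and 1304 bp in WT, and 1523 and 900 bp in KO. KO replicate 1 was the longest of the 4 libraries and KO replicate 2 the shortest, so no direction can be given. Psmb10 (chr8:105935728-105938392), which replaces Psmb7, had 1099 and 1137 bp in WT, and 521 and 914 bp in KO.

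At Psmb8 the deposited pileup, the number of fragments over the summit, was 130 and 57 in WT replicates 1 and 2, and 22 and 20 in KO replicates 1 and 2. Pileup is not scaled to depth, and WT replicate 1 was the deepest library. The authors' fold enrichment over local background at Psmb8 was 12.7 and 9.81 in WT, and 8.34 and 7.92 in KO. At Psmb10 it was 7.99 and 7.08 in WT, and 6.69 and 6.20 in KO. Psmb9 had 8.35 and 7.77 in WT, and 5.79 and 7.84 in KO, so the genotypes overlapped at Psmb9 and at neither of the other two. Ranks were read within a library only, since the lists differ in length. A percentile of 100 is the best peak of a list by −log10 q. Psmb8 stood at the percentiles 98.5, 93.8, 95.2 and 88.1 in WT replicates 1 and 2 and KO replicates 1 and 2. Psmb9 stood at 93.6, 91.7, 79.8 and 97.1, and Psmb10 at 85.8, 69.7, 87.0 and 71.8. The medians of all 7442 genes marked in all 4 libraries were 77.8, 75.3, 61.3 and 64.2, so Psmb8 and Psmb9 stood above the median in every library and Psmb10 in every library but WT replicate 2.

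Psmb8 and Psmb9 lie in the MHC class II region beside the peptide transporter gene Tap1. The starts of Psmb9 and Tap1 are 226 bp apart, and the 3′ end of Tap1 lies 970 bp from the Psmb8 start, so one window serves several genes. With negative distances upstream of a start, the summit of the Psmb9 peak lay at −267 and −243 bp in WT, on the Tap1 side, and at −262 bp in KO replicate 2, but 122 bp inside Psmb9 in KO replicate 1. Psmb8 summits lay at −345 to −175 bp. Psmb10 summits lay 684 to 1241 bp inside the gene, downstream of the CG-poor window printed above, and the KO peaks began 480 and 87 bp inside it. No H3K4me1 peak of any library lay over the whole span plus 1 kb of Psmb8, Psmb9 or Psmb10.

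Most genes of the base had high-ranking peaks. Psmc5 (chr11:106256185-106263112), an ATPase whose start faces that of Ftsj3 at 101 bp, had 1821 and 1810 bp in WT and 1247 and 972 bp in KO, the longest cover of the base. Psmd1 (chr1:86064619-86139295), a scaffold subunit, had 1221 and 1208 bp in WT, and 956 and 1209 bp in KO. KO replicate 2 lay between the WT libraries, so the genotypes overlapped at Psmd1 in covered length. The windows cut off the downstream part of all these peaks. Over the whole gene plus 1 kb the cover was 1806 and 1540 bp in WT, and 1161 and 1356 bp in KO, without overlap. Psmc4 (chr7:28041702-28050092), another ATPase, had 938 and 747 bp in WT and 685 and 274 bp in KO, but its peak stood at percentiles 99.9, 99.8, 99.4 and 83.6. Short cover and high rank thus occurred in 1 gene. Psmc1, Psmc3, Psmc6, Psmd2 and Psmd4 had 905 to 1650 bp in WT and 442 to 818 bp in KO.

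The ATPase gene Psmc2 (chr5:21785275-21803787) was the one gene with peaks in the WT libraries alone, and this rests on its outer start. Those WT peaks covered 892 and 560 bp, ranked at percentiles 22.3 and 14.1 of their lists, and had summits at −515 and −670 bp from the outer start, which lies 11 bp from an end of Dnajc2. The inner start lies 1472 bp into the gene. There all 4 libraries had a peak, of 1576 and 1441 bp in WT and 886 and 577 bp in KO, at percentiles 55.2, 78.1, 70.7 and 83.8. These peaks ran, in distance from the outer start, from 1244 to 2819 and from 1336 to 2776 bp in WT, and from 1554 to 2439 and from 1653 to 2229 bp in KO. The inner start lay under both WT peaks and under neither KO peak. When KO replicate 2 was left out, Psma5, Psma7 and Psmb4 joined Psmc2, making 4 genes with peaks in the WT libraries alone.

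**Figure D3:**
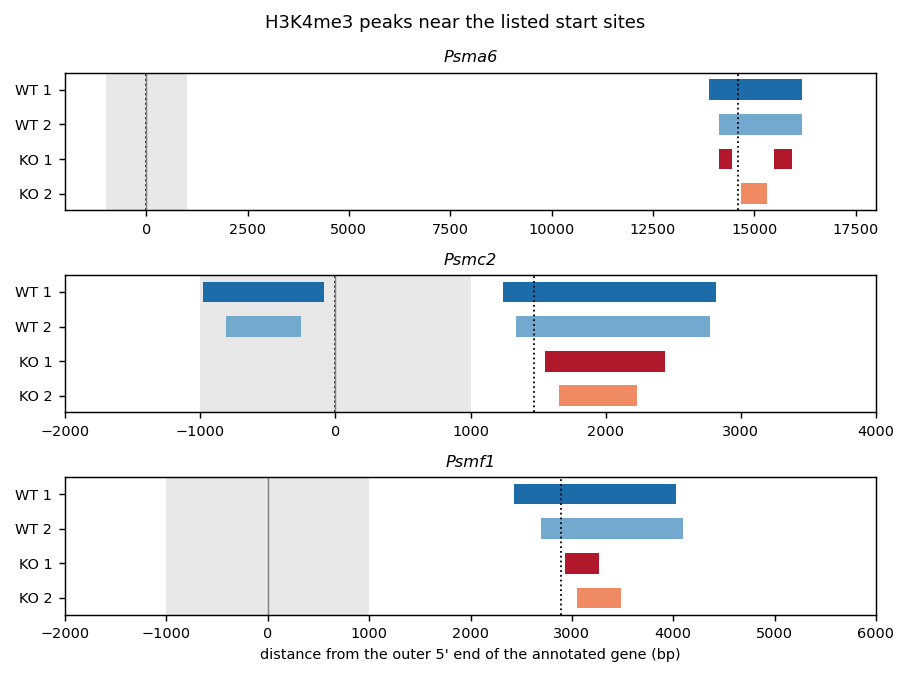
H3K4me3 peaks (bars) in each library along Psma6, Psmc2 and Psmf1, by distance in bp from the outer 5′ end of the annotated gene; grey marks the 1 kb scored around that end, and dotted lines mark listed starts. The peaks at the inner starts covered them in both WT libraries and in neither KO library.

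The lid genes were marked in all 4 libraries without exception, 8 of 8. Psmd13 (chr7:140882394-140898642) had the longest cover, with 1662 and 1539 bp in WT and 772 and 1039 bp in KO, and its start faces that of Sirt3 at 85 bp. Psmd12 (chr11:107479528-107498036) had 1089 bp in each WT library and 1037 bp in each KO library, so the genotypes lay 52 bp apart in covered length. The windows cut off the downstream part of all these peaks. The whole peaks were 1388 and 1251 bp long in WT, and 1399 and 1097 bp in KO, so their lengths overlapped between genotypes. Psmd8 had 1150 and 1114 bp in WT, and 581 and 472 bp in KO. Psmd11 (chr11:80428615-80473248) had 1200 and 1156 bp in WT, and 245 and 650 bp in KO, and the 245 bp is the lowest value of a lid gene. Psmd3, Psmd6, Psmd7 and Psmd14, of which Psmd14 is the deubiquitinase of the lid, had 929 to 1349 bp in WT and 424 to 889 bp in KO.

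Of the regulators, which cap the core in place of the regulatory particle or inhibit it, 4 of 6 were marked in all 4 libraries. Psme1 and Psme2 encode the interferon-inducible activator PA28. Psme2 (chr14:55587440-55591101) had 1783 and 1724 bp in WT and 692 and 989 bp in KO. Psme1 (chr14:55578494-55581527) had 1151 and 1139 bp in WT, and 502 and 1127 bp in KO, so KO replicate 2 was within 12 bp of a WT library. Psme3 (chr11:101316213-101323537), the nuclear activator, had 1686 and 1682 bp in WT and 715 and 406 bp in KO. Psme4 had 1488 and 1498 bp in WT, and 625 and 387 bp in KO. The short gene Psme2b (chr11:48945345-48946410) had no peak in any library and 2 CG dinucleotides in its promoter window. Reads from Psme2b and Psme2 may be hard to place apart if their sequences are alike, which was not tested.

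Psmf1 (chr2:151716062-151744199), an inhibitor of the core, had no peak at its ends, but its listed start lies 2889 bp inside the outer end of the annotated gene. The 4 libraries had a peak at that start, of 1601 and 1402 bp in WT and 339 and 436 bp in KO. The WT peaks ran from 2432 to 4032 and from 2696 to 4097 bp from the outer end, and the KO peaks from 2934 to 3272 and from 3046 to 3481 bp. As at Psma6 and Psmc2, only the WT peaks covered the start. Psma3 differed: its listed start lies 5340 bp inside the gene, and no peak covered it. The peaks nearest to that start were 1692 and 1618 bp long in WT, and 758 and 1139 bp in KO. They began 5412 bp from the outer end in both WT libraries, and 5843 and 5690 bp from it in KO. Psme3ip1 also has a listed start 10598 bp inside the gene, and no library had a peak there. Scored over the whole gene plus 1 kb, 44 of the 50 genes had H3K4me3 in all 4 libraries (88.0%, background 43.0%). A peak in at least 1 library was found over 47 (94.0%, background 62.1%), and 3 had none, namely Psma8, Psmb11 and Psme2b.

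The assembly chaperones, which build the core and base and leave the finished particle, were marked in all 4 libraries, 6 of 6. Psmd5 (chr2:34852087-34870965) had 1735 and 1764 bp in WT and 904 and 1200 bp in KO. Psmg2 had 1599 and 1752 bp in WT, and 689 and 708 bp in KO. Psmd9 had the shortest cover, with 979 and 907 bp in WT and 565 and 658 bp in KO. Psmg1 (chr16:95979933-95990960) had 1550 and 1438 bp in WT, and 389 and 274 bp in KO. Psmg3 and Psmg4 had 964 to 1632 bp in WT and 628 to 940 bp in KO. Of the interacting proteins, Psme3ip1 had 2001 bp in each WT library, which is the whole window around its start, and 571 and 1245 bp in KO. Its start lies 21 bp from that of Rspry1. Psmc3ip had 867 and 853 bp in WT and 292 and 305 bp in KO.

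The ranks of the peaks differed among the roles. In WT replicates 1 and 2 and KO replicates 1 and 2, the 41 genes marked in all 4 libraries had median percentiles of 84.7, 77.9, 67.0 and 70.9. Those of all 7442 genes so marked, given above, were lower in each library. Over the genes of a role with a peak, the base had medians of 96.9, 98.0, 91.3 and 87.6 and the immunoproteasome genes 93.6, 91.7, 87.0 and 88.1. The base and the immunoproteasome genes were above the median of all marked genes in every library. The beta ring had 72.1, 77.5, 57.9 and 37.8 and the assembly chaperones 65.5, 63.1, 46.1 and 44.6. The assembly chaperones were below the median of all marked genes in every library. These orders are descriptions over genes that share libraries, and were not tested.

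**Figure D4:**
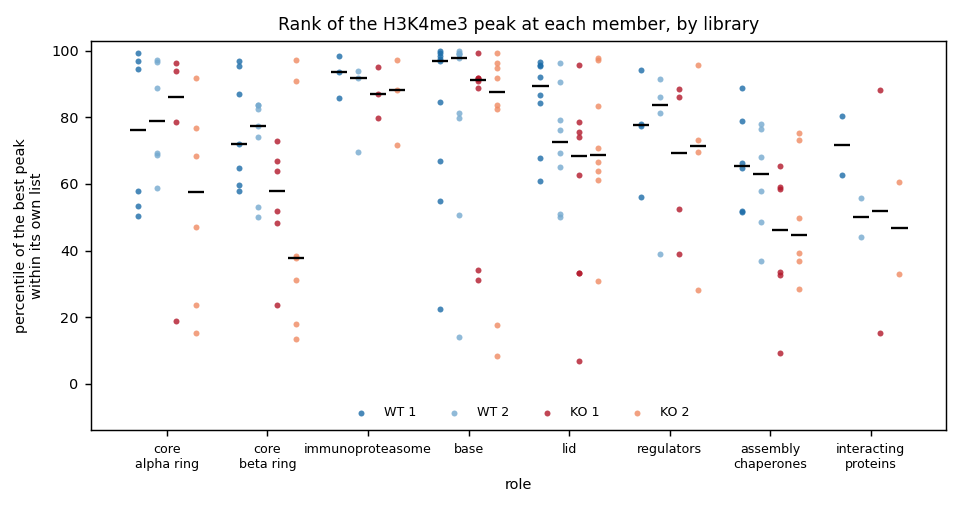
Percentile of the best H3K4me3 peak at each gene within the list of its own library (vertical; 100 is the best peak by −log10 q), by role and library, with a black bar at the median. The base and immunoproteasome medians lie at 87.0 or above, and those of the assembly chaperones at 65.5 or below.

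The position of the H3K4me3 peak relative to the start differed between the genotypes as it did in all genes. The start is taken here as the outer 5′ end of the annotated gene. For the 34 genes with a known strand and H3K4me3 at the start in all 4 libraries, the median upstream edge of the peak lay at −399 and −219.5 bp in WT replicates 1 and 2, and at 47.5 and 42 bp in KO replicates 1 and 2. The peak thus began upstream of the start in WT and just inside the gene in KO, by these medians. The annotated start was under a peak in 32 and 25 of the 34 genes in WT (94.1% and 73.5%), and in 7 and 8 in KO (20.6% and 23.5%). For the 5928 genes scored in the same way, 79.6% and 65.8% had the start under a WT peak, and 22.0% and 25.9% under a KO peak. Downstream edges had medians of 1108.5 and 982 bp in WT, and 763.5 and 691 bp in KO. At 500 bp inside the gene 94.1% and 88.2% of the 34 genes were under a peak in WT, and 79.4% and 67.6% in KO. The genotypes were thus further apart at the start itself than at 500 bp inside the gene. Median summits lay at 192.5 and 213.5 bp in WT and at 350.5 and 275.5 bp in KO, against 326 to 377 bp for all genes in the 4 libraries.

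**Figure D5:**
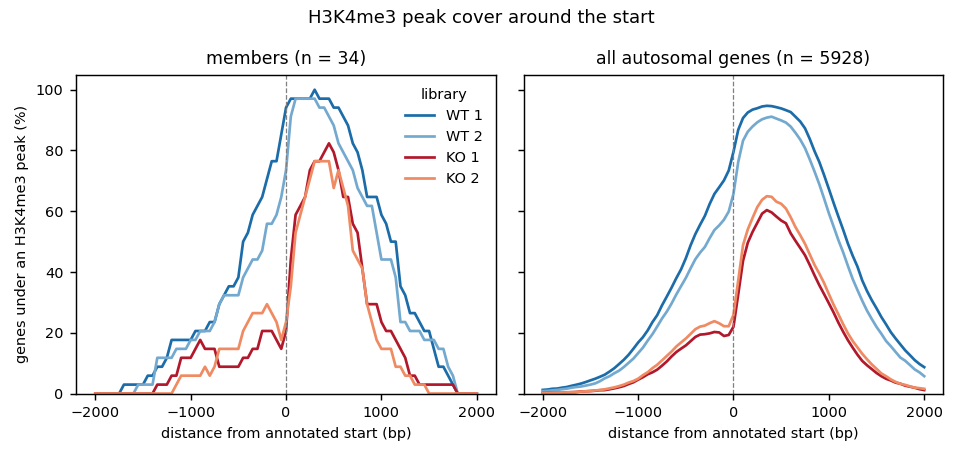
Share of genes under an H3K4me3 peak (%) by distance from the annotated start in bp (negative is upstream) in each library, for 34 proteasome genes (left) and 5928 autosomal genes (right). At the start itself the proteasome genes stand at 94.1% and 73.5% in WT, and 20.6% and 23.5% in KO.

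Many proteasome genes lie close to another gene. Another protein-coding gene end was within 1 kb of either end at 21 of the 50 (42.0%), against 25.6% of all autosomal genes. For genes marked in all 4 libraries it was 39.0% of the proteasome genes and 41.1% of all. Where the strand was known, a gene end lay within 1 kb of the start at 14 of 42 (33.3%), against 15.8% of all. For 8 genes the neighbour was called head to head: Psma2 with Mrpl32, Psma7 with Ss18l1, Psmb3 with Pcgf2, Psmb9 with Tap1, Psmc5 with Ftsj3, Psmd13 with Sirt3, Psme2 with Rnf31 and Psme3ip1 with Rspry1. Pairs of Psmc2 with Dnajc2, Psma4 with AY074887 and Psmg2 with Cep76 lacked a strand and could not be called. The head-to-head share of all genes was not computed. A peak that spans both starts cannot be assigned to 1 of the 2 genes. Some peaks lay on 1 side only. The KO peaks at Psmb3 ran from 13 to 572 and from 193 to 498 bp inside that gene. Those at Psma2 ran from 49 to 780 and from 51 to 786 bp inside it. All 4 libraries had H3K4me3 at 16 of the 21 genes with another gene end within 1 kb and 25 of the 29 without. Over all autosomal genes they had it at 3060 of the 5295 with such an end, and at 7442 of 20665 with or without. Whether a neighbour matters to the mark was not tested.

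H3K4me1 peaks were few at the ends of these genes, as they were at those of all autosomal genes. A peak lay at an end of 13 of the 50 genes in at least 1 library (26.0%, background 28.9%). It was present in WT replicates 1 and 2 at 8 and 6 genes (backgrounds 16.7% and 14.3%), and in KO replicates 1 and 2 at 7 and 3 (16.4% and 13.6%). The assembly chaperone gene Psmg4 (chr13:34162964-34178172) alone had H3K4me1 there in all 4 libraries (1 of 50, background 5.31%), over 413 and 397 bp in WT and 368 and 533 bp in KO. Its summits lay at −276 to −133 bp from the start, and 3 of its 4 peaks overlapped the H3K4me3 peak of the library with the same name. The lid gene Psmd11 alone had H3K4me1 in the WT libraries only, over 461 and 273 bp (1 of 13, against 6.36% of all genes with a peak), and over its whole span it had peaks in all 4 libraries. None had it at its ends in the KO libraries alone (background 5.17%). The other 11 of the 13 genes were mixed, which 70.1% of all genes with a peak at an end were. Over whole genes plus 1 kb, H3K4me1 lay in 33 of the 50 genes in at least 1 library (background 60.2%) and in 11 in all 4 (31.4%).

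The activator gene Psme1 had 575 and 809 bp of H3K4me1 in WT, and 255 and 0 bp in KO. Psmd4, the ubiquitin receptor of the base, had 396 and 0 bp in WT and 340 and 0 bp in KO, so it was present in replicate 1 of both genotypes and in replicate 2 of neither. Of the 24 H3K4me1 peaks at the ends of these genes, 12 overlapped an H3K4me3 peak of the like-named library. At Psmc1, Psme3 and Psme3ip1 the H3K4me1 peaks lay at the 3′ end, with summits 7892 to 27238 bp from the start. No peak ranked above the percentile 83.9 of its list, and the median percentile of the 24 was 36.6. With the limit of a −log10 q of at least 10, no proteasome gene had an H3K4me1 peak at its ends.

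No MLL4 peak of any library lay over any of the 50 genes or within 1 kb of them. Over all autosomal genes 20 (0.0968%) had an MLL4 peak at an end and 38 (0.184%) over the gene plus 1 kb, so the lists allow no comparison of genotypes at these genes.

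Genes that act with the proteasome but lack the name pattern were scored in the same way. Of 21 such autosomal genes 20 had H3K4me3 at an end (56.2% of all genes): 14 in all 4 libraries (64.1% of genes with a peak), 2 in the WT libraries alone (14.7%) and 4 in a mixed pattern (21.2%). Ecpas had none. Zfand5, one of those in WT alone, had 439 and 64 bp. The transcription factor gene Nfe2l1, whose product raises proteasome gene expression when the proteasome is inhibited, had 1413 and 1374 bp in WT, and 125 and 639 bp in KO. Pomp, the maturation factor of the core, had 1714 and 1688 bp in WT and 1056 and 1287 bp in KO, and the ubiquitin receptor gene Adrm1 had 1025 and 913 bp in WT and 911 and 870 bp in KO. The genotypes did not overlap at any of these 3. At all 20 of these genes with a peak both KO libraries were below both WT libraries, against the background of 91.6% of genes with a peak.

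Genes of antigen presentation and the interferon response, the setting of the immunoproteasome, were marked at 10 of 10 (56.2% of all genes), of which 7 in all 4 libraries (64.1% of genes with a peak) and 3 mixed (21.2%). At 8 of the 10 both KO libraries were below both WT libraries, against 91.6%. Tap1 had 2075 and 2231 bp in WT, and 2126 and 1524 bp in KO, with overlap between genotypes as at its neighbour Psmb9. Its windows take in peaks also counted for Psmb9 and Psmb8, so the overlap at Tap1 is not separate from that at Psmb9. The MHC class I gene H2-K1 had 989 and 1032 bp in WT and 152 and 0 bp in KO, and B2m, its light chain, 1027 and 999 bp in WT and 0 and 505 bp in KO. H2-K1 belongs to a family of near-identical genes, so its peaks are uncertain.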

How the data were processed

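The 12 libraries were grouped by antibody and genotype from their titles. Separate cultures or embryos are not stated, so the spread between replicates, and any p-value from it, may be technical. The submitters' processing notes name the build mm10 and, with no role given, HOMER 4.10, deepTools, MACS2, bedtools, SAMtools 1.5 and Bowtie2. Per the file headers, the authors called narrow peaks in each library on its own with MACS 2.1.0.20150731 in paired-end mode, at a q cutoff of 0.01, with no control library and a local background over 10000 bp. Duplicates were limited to 2 fragments per position in the H3K4me1 lists and the H3K4me3 list of WT replicate 1, and to 1 in the others, per the file headers. The deposited lists give pileup (signal, not scaled to depth), −log10 p and −log10 q values, and fold enrichment over the local background as a ratio. Score, rank and position of a peak are the authors' own values.

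Peaks were joined to RefSeq genes of GRCm38.p6, the assembly of mm10, on the 19 autosomes by an overlap of at least 1 bp with 1 kb around either gene end. The table of genes has no exons, so peaks were not placed in exons or introns. Start sites and strand came from the promoter table, which matched 42 of the 50 genes. Covered length was compared between genotypes by overlap of the 2 WT and 2 KO values and by exact permutation. The genes and gene lists were chosen with earlier results of these data known. Genes named with values are the immunoproteasome genes, those with either histone mark in 1 genotype alone, with no H3K4me3 or with H3K4me1 in all 4 libraries, and in each role the 2 with the longest and the 2 with the shortest mean H3K4me3 cover; others were named after their values were seen. Scoring was tested on simulated peaks. Alternatives were other windows, the whole gene, the start alone, a −log10 q of at least 10, lists of equal length, an overlap of 100 bp, each library left out, a replicate block and, chosen after seeing the data, every listed start. Python 3.11.15, NumPy 2.4.6 and pandas 2.3.3 were used.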

Additional observations from a re-analysis of the deposited data

How the results depend on the processing

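Windows of 500 bp or 2 kb, the whole gene, the start alone, lists of equal length and an overlap of 100 bp kept the count of genes with H3K4me3 in all 4 libraries within 1.5 times the 41 reported. With a −log10 q of at least 10 it was 8. The single gene with H3K4me3 in WT libraries alone, Psmc2, was lost (0 genes) with a 2 kb window, the whole gene, lists of equal length or, chosen after seeing the data, every listed start, and with a −log10 q of at least 10 the count was 23. The median covered length differed by 505 bp between WT and KO over the 50 genes, by 369.5 bp with 500 bp windows, 748.25 bp with 2 kb and 774.75 bp over the whole gene. At every listed start, known for 42 genes, it differed by 608.75 bp. With a −log10 q of at least 10 the difference was 1189.75 bp, which is the WT value itself, since the KO value was 0 bp. For H3K4me1 in all 4 libraries the count of 1 became 4 with 2 kb, 11 over the whole gene and 0 with a −log10 q of at least 10. For H3K4me1 in WT alone it became 2 with 500 bp, 3 over the whole gene and 0 with a −log10 q of at least 10, and in KO alone the 0 became 1 with lists of equal length. The cause of these changes was not tested, except that wider windows take in more bases.

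Each library was left out in turn, and shares here are of all genes with a peak. H3K4me3 lay in all libraries at 41 to 44 genes (shares 64.4% to 74.4%). WT was above KO without overlap at 41 to 44 (shares 92.8% to 99.3%). In WT alone it lay at 1 to 4 genes (4 without KO replicate 2, shares 15.8% to 24.9%), and in KO alone at 0 (shares up to 0.0603%). The difference in median length was 454.25 to 555.75 bp. For H3K4me1 the ranges were 1 to 2 (all libraries; 2 without WT replicate 2 or KO replicate 2), 1 to 3 (WT alone; 3 without either WT replicate, 2 without KO replicate 1) and 0 to 1 (KO alone; 1 without WT replicate 1 or either KO replicate). The shares were 23.8% to 26.1% in all libraries, 10.4% to 20.2% in WT alone and 8.32% to 19.6% in KO alone. With a replicate block, which pairs WT and KO libraries of the same number, 43 of the 45 genes with a peak were lower in KO in both pairs. Of all genes with a peak 92.7% were. Same-numbered libraries did not deviate together (r = 0.0276 over 7442 genes, which are not independent), so the numbers were not taken to pair them. A gene without a listed peak may carry the mark below the authors' cutoff, and the MLL4 lists were too short to show a pattern at these genes.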

Other observations

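The X-linked gene Psmd10, which encodes the assembly chaperone gankyrin and was left out by the restriction to autosomes, had an H3K4me3 covered length of 1700 and 1680 bp in WT replicates 1 and 2, and 710 and 0 bp in KO replicates 1 and 2. It had no H3K4me1 or MLL4 peak at its ends in any library.

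Over whole genes plus 1 kb, H3K4me1 was more frequent than at gene ends. Peaks lay over 33 of the 50 genes in at least 1 library (66.0%), against 60.2% of all autosomal genes, and over 11 in all 4 libraries (22.0%), against 31.4%. The 4 libraries held 37 and 35 such peaks in WT, and 32 and 28 in KO, 132 in all. Psmb7, the trypsin-like subunit of the core, held the most with 15, followed by Psma6, Psmd1 and Psme4 with 12 each. The Psmb7 peaks numbered 4 and 5 in WT replicates 1 and 2, and 3 and 3 in KO replicates 1 and 2. These genes span more bases than most of the others, and the part of gene length in the counts was not tested.

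The 50 genes were spread over the autosomes unevenly, with 10 on chromosome 11 and 6 each on chromosomes 2 and 14. Several autosomes had none, chromosomes 10 and 19 among them.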
